A study of Rattus norvegicus with 8 samples.

Results

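The diaphragm is the main muscle of inspiration, and a piece of it also holds vessels, fascia and fat cells. The genes described here are 9 of the 17055 rows of the deposited count table: Adipoq, Plin1, Fabp4 and Cidec, taken as measures of fat content, Fasn, taken as the measure of lipid synthesis, and Pparg, Lipe, Cfd and Lep. Rows were matched by symbol, not by their values. All 9 were found under their current symbols, and all 9 were among the 10522 genes that passed the filter on low counts. RNA came from snap-frozen diaphragm of 8 Sprague-Dawley rats, 1 library per animal, 16 weeks after surgery. In 4 rats (MI, replicates 1 to 4) the left anterior descending coronary artery had been ligated to cause a myocardial infarction. The other 4 rats (Sham, replicates 5 to 8) had the same operation without the ligation, so both groups share isoflurane anaesthesia, mechanical ventilation and an opened chest. Age is given only as the time since surgery. The question was how the diaphragm's RNA differs after infarction.

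White fat cells store triglyceride in a single large lipid droplet and release hormones into the blood. Adiponectin (Adipoq), leptin (Lep) and adipsin (Cfd) are such secreted products, perilipin 1 (Plin1) and Cidec coat or enlarge the droplet, and hormone-sensitive lipase (Lipe) breaks its lipid down. Fatty acid synthase (Fasn) makes new fatty acids, Fabp4 carries fatty acids inside the cell, and Pparg is the nuclear receptor that drives fat cell differentiation. Adipoq, Plin1 and Cidec RNA is found largely in fat cells, whereas Fabp4 is also made by capillary endothelium and macrophages, and Fasn, Lipe and Pparg are made by further cell types. In RNA of bulk tissue, fewer fat cells and less RNA per fat cell cannot be told apart.

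Library totals ran from 8566143 to 15944048 counts in MI and from 7941402 to 24967251 counts in Sham. The floor of 3 counts came to between 0.120 and 0.378 CPM (counts scaled to the same library size). Of 10 skeletal muscle markers, all were detected and their summed level was 116462 to 153701 CPM in MI and 126861 to 151538 CPM in Sham. One library stood apart: in Sham 7, also the deepest, the 8 lymphocyte markers summed to 38.8 CPM, against 7.61 to 14.9 CPM in MI and at most 10.2 CPM in the other Sham libraries. Its B cell gene Ms4a1 had 153 counts, where no other library had more than 6. The labels give no batch, but the animals' numbers fall in a lower range (MI 1, MI 2 and Sham 5) and a higher range (MI 3, MI 4, Sham 6, Sham 7 and Sham 8).

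Adipoq, Plin1, Cidec and Cfd varied together across the 8 libraries, while Lep did so less closely (Plin1 and Lep both had few reads). That contrast rests on MI 2 and MI 4. Without them Pearson's r with Adipoq was 0.91 for Lep, against 0.92 for Cidec, 0.85 for Plin1 and 0.82 for Cfd. The stretches just upstream of these 5 genes are shown. Each is the 250 bases before the gene's start, 5′ to 3′ on the gene's strand, from RefSeq on GRCr8, which is not the rn5 build named for the counts. They lie at chr11:91240170-91240419 (minus strand) for Adipoq, chr1:143086149-143086398 (minus) for Plin1, chr4:148137116-148137365 (minus) for Cidec, chr7:10465497-10465746 (minus) for Cfd and chr4:58626288-58626537 (plus) for Lep. Capitals mark CCAAT, the box bound by NF-Y, on either strand (ATTGG when it lies on the other), and TTGCGCAA, a palindrome bound by C/EBP factors.
Adipoq: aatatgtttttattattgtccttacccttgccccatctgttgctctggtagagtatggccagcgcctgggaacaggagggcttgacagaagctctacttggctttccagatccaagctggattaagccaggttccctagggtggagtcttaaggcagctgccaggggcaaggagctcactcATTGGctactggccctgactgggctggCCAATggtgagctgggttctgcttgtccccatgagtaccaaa
Plin1: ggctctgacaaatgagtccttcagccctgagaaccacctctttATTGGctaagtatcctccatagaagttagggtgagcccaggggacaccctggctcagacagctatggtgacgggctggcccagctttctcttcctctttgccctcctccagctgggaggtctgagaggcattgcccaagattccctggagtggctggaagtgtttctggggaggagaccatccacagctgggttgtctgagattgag
Cidec: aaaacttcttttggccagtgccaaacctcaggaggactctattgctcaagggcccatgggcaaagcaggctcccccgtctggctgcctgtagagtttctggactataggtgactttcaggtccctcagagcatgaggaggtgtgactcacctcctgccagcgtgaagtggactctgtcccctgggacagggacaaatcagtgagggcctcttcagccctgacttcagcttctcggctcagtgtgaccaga
Cfd: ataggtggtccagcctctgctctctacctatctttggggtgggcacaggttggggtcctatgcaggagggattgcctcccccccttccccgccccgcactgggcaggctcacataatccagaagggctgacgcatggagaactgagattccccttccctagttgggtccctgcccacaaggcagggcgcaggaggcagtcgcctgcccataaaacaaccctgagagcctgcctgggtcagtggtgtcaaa
Lep: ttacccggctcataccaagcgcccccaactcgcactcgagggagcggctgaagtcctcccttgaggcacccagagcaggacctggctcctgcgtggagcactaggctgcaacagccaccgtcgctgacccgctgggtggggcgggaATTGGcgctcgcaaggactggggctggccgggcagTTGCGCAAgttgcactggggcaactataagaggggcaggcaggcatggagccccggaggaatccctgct
CCAAT occurred at 69 and 42 bases upstream of the Adipoq start and at 207 bases upstream of the Plin1 start. The Lep window held CCAAT at 104 bases and TTGCGCAA at 69 bases. The Cidec and Cfd windows held neither. Of the 4 genes that varied together, 2 thus had a CCAAT. Of all 33469 RefSeq windows of this length, 34% held CCAAT on either strand and 0.14% held TTGCGCAA. The marked motifs do not overlap one another. Windows were available for 6 of the 9 genes, 7 windows in all. None held, on either strand, the TATA box TATAAA (12.9% of all windows) or the nuclear receptor motif AGGTCA (14.1%). A match is a description of letters and not evidence of binding.

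None of the 9 genes was called different between MI and Sham. With 4 animals per group and an SE as large as 0.67 on the log2 scale (Adipoq), this does not show that their levels are equal. In edgeR's quasi-likelihood test, 0 of the 9 had a Benjamini-Hochberg adjusted p under 0.05, where 0 of all 10522 genes did (0%). At an unadjusted p under 0.05 stood 1 of the 9, Pparg, against 8.14% of all genes (3.67% higher in MI and 4.47% lower). DESeq2, which called 0.133% of all genes, called 0 of the 9. It gave an adjusted p for 9091 of the 10522 genes, and not for Plin1 and Lep, so these 2 could not be called there. The values of MI and Sham overlapped in all 9, whereas 4.55% of all genes had no overlap. Most of the 9 varied widely among libraries. The SD of log2 CPM over the 8 libraries was 0.99 for Adipoq, 0.85 for Cidec, 0.77 for Cfd, 0.74 for Lep, 0.67 for Fasn and 0.64 for Plin1, beside a median of 0.21 over all genes tested. Fabp4, at 0.30, Pparg, at 0.34, and Lipe, at 0.35, varied less. The median is over genes of all levels, and counting error adds to the SD of genes with few reads, such as Lep and Plin1.

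**Figure D1:**
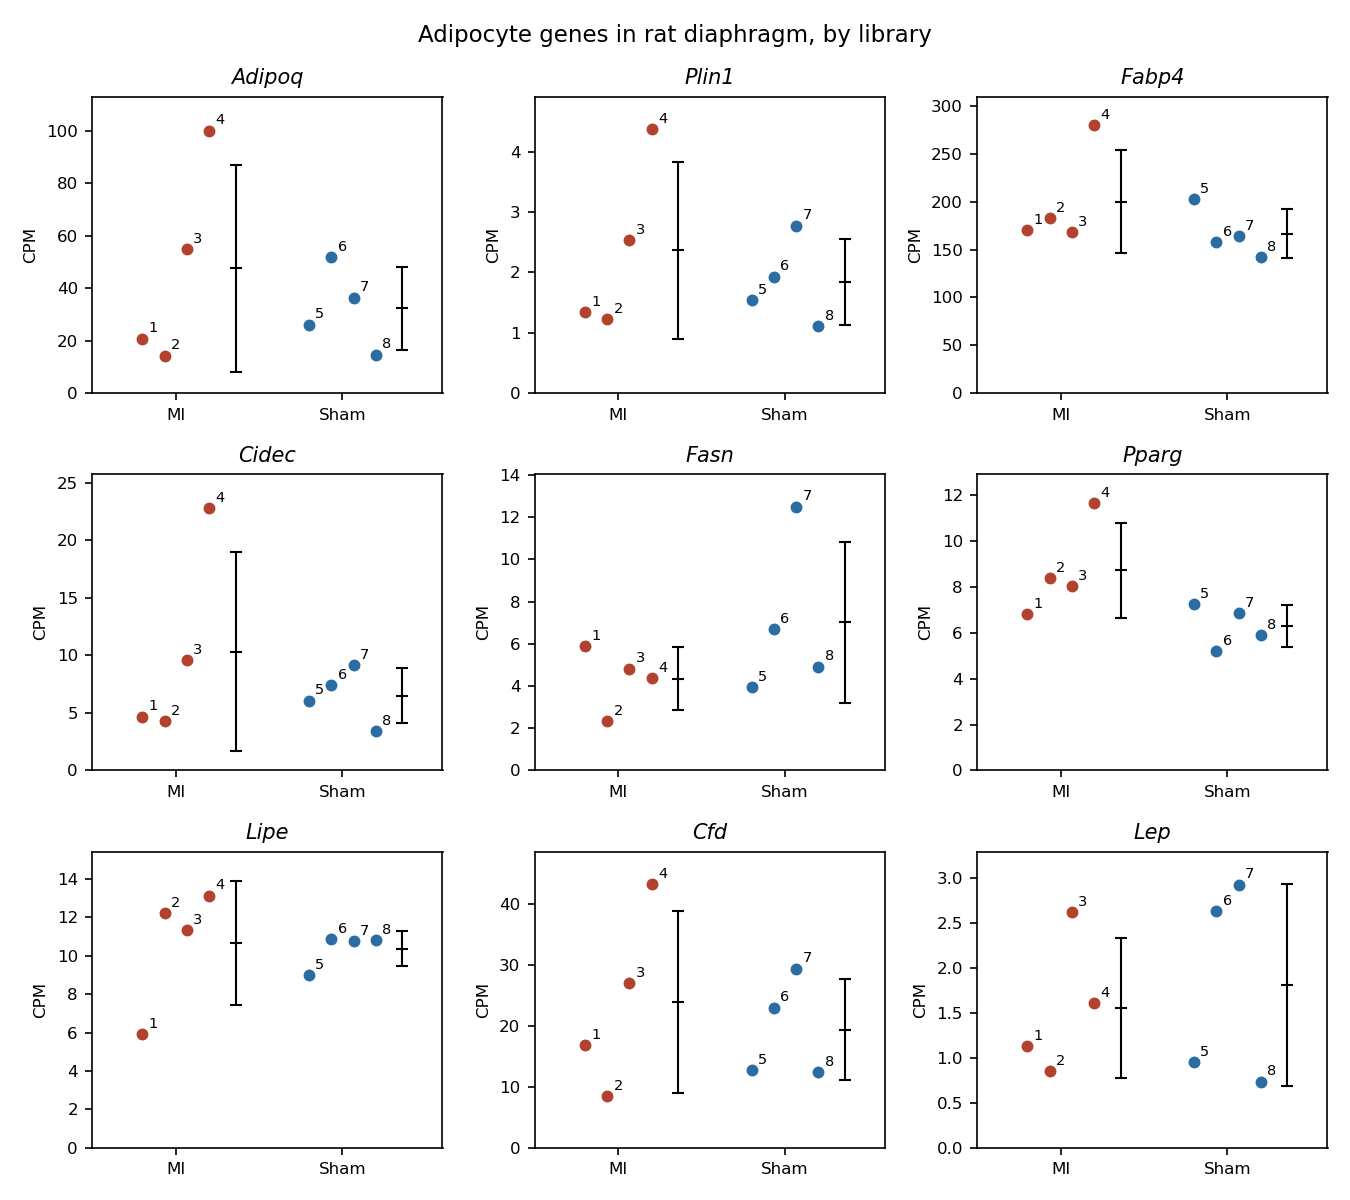
Level of each of the 9 genes in each library, in CPM on linear axes from 0, with MI left of Sham, 1 numbered point per animal and the group mean with an SD bar beside them (n = 4 each). MI 4 is the highest of the 8 libraries for Adipoq, Plin1, Fabp4, Cidec, Pparg, Lipe and Cfd, and Sham 7 is the highest for Fasn and Lep.

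Adipoq, the fat cell hormone, had 20.8, 14.2, 55.0 and 100.2 CPM in MI 1 to 4, against 26.1, 52.0, 36.4 and 14.6 CPM in Sham 5 to 8. The lowest and the highest library are thus both MI animals, 7.04-fold apart, and the Sham values lie between them. The means were 47.6 ± 39.4 CPM in MI and 32.3 ± 15.9 CPM in Sham (SD, n = 4 each). The log2 fold change was 0.53 ± 0.67 (SE), with an adjusted p of 0.840 in edgeR. The sign rests on MI 4: without it the log2 fold change was -0.13. Within the lower number range both MI animals were below Sham 5, and within the higher range both were above all 3 Sham animals, with MI 3 close to Sham 6. These orders were not tested.

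Plin1, the droplet coat protein of fat cells, had 1.34, 1.22, 2.54 and 4.38 CPM in MI 1 to 4 and 1.54, 1.93, 2.78 and 1.11 CPM in Sham 5 to 8. These are few reads, 20, 20, 30 and 38 counts in MI and 21, 30, 72 and 9 in Sham. The exact 95% binomial interval covers counting error only. It was 3.10 to 6.01 CPM in MI 4 and 0.506 to 2.10 CPM in Sham 8, so those libraries differ beyond counting error. Between the groups the log2 fold change was 0.24 ± 0.43, with an adjusted p of 0.882 in edgeR, and it was -0.20 without MI 4.

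Cidec, which fuses small droplets into large ones, followed the same animals. It had 4.67, 4.28, 9.56 and 22.8 CPM in MI 1 to 4, against 6.07, 7.39, 9.14 and 3.44 CPM in Sham 5 to 8. MI 4 stood well above every other library, MI 3 was just above the highest Sham animal, and MI 1 and MI 2 lay inside the Sham range. The log2 fold change was 0.58 ± 0.57 with an adjusted p of 0.776 in edgeR, and -0.13 without MI 4.

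Fabp4 was the least variable of the fat content genes. It had 170.2, 182.6, 168.0 and 280.3 CPM in MI 1 to 4 and 202.6, 157.5, 164.2 and 142.3 CPM in Sham 5 to 8. MI 4 was again the highest, and Sham 5 came next. The log2 fold change was 0.26 ± 0.18 with an adjusted p of 0.690 in edgeR, and 0.06 without MI 4. The 13 capillary endothelial markers summed to 438 to 601 CPM in MI and 503 to 590 CPM in Sham, and none was at 0 in every library. Their part in the Fabp4 values was not tested.

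A fat content level was set as the mean log2 CPM of Adipoq, Plin1, Fabp4 and Cidec. It was 3.66, 3.49, 4.47 and 5.37 in MI 1 to 4 and 3.94, 4.24, 4.33 and 3.30 in Sham 5 to 8. The groups averaged 4.25 ± 0.86 in MI and 3.95 ± 0.47 in Sham (SD, n = 4 each), a difference of 0.29 that is smaller than either SD. Without MI 4 the difference was -0.08, without Sham 8 it was 0.08, and without MI 2 it was 0.54. MI 4 and Sham 8, at the ends of this scale, are also the shallowest libraries. MI 4 further had the highest summed level of the 9 fibro-adipogenic progenitor markers (2680 CPM, against at most 2024 CPM in the other MI and 1900 CPM in Sham libraries, with Cd34 listed at 0 throughout) and of the 5 red blood cell genes (801 CPM, against at most 654 CPM in the other MI and 376 CPM in Sham libraries). Dcn (1965 CPM in MI 4) and Lum (401 CPM) made up most of the progenitor sum. Other members of that list did not follow: Osr1, at 8.99 CPM in MI 4, was below every Sham library (11.05 to 16.0 CPM), and Smoc2 had an r of -0.83 with the fat content level. The part of these cells in the fat content level was not tested.

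Fasn, the lipid synthesis gene, was lower on average in MI, without passing the test. It had 5.87, 2.32, 4.82 and 4.38 CPM in MI 1 to 4, against 3.95, 6.69, 12.5 and 4.92 CPM in Sham 5 to 8. Sham 7 was well above every other library, MI 2 was the lowest, and the groups overlapped. The means were 4.35 ± 1.49 CPM in MI and 7.01 ± 3.82 CPM in Sham (SD, n = 4 each), with a log2 fold change of -0.73 ± 0.39 and an adjusted p of 0.642 in edgeR. Without Sham 7, the library with the raised lymphocyte markers, the log2 fold change was -0.27. Within the higher number range both MI animals were below all 3 Sham animals, whereas in the lower range MI 1 was above Sham 5 and MI 2 below it.

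To separate synthesis from fat content, Fasn was set against the fat content level in 2 ways. Fasn log2 CPM minus the level was -1.07, -2.19, -2.16 and -3.19 in MI 1 to 4 and -1.91, -1.47, -0.67 and -0.96 in Sham 5 to 8. This difference compares libraries only and does not say which gene is more abundant, since it is not per length. It averaged -2.15 ± 0.87 in MI and -1.25 ± 0.55 in Sham (SD, n = 4 each), a gap of -0.90 that ranged from -1.26 without MI 1 to -0.55 without MI 4. With the level as a term in the edgeR model, the Fasn log2 fold change was -0.79 ± 0.39 with an adjusted p of 0.707, on 5 residual degrees of freedom. It was -0.34 without Sham 7 and -1.22 without MI 1. The Fasn log2 fold change thus moved by less than its SE with the level in the model. The gap of -0.90 was not tested.

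**Figure D2:**
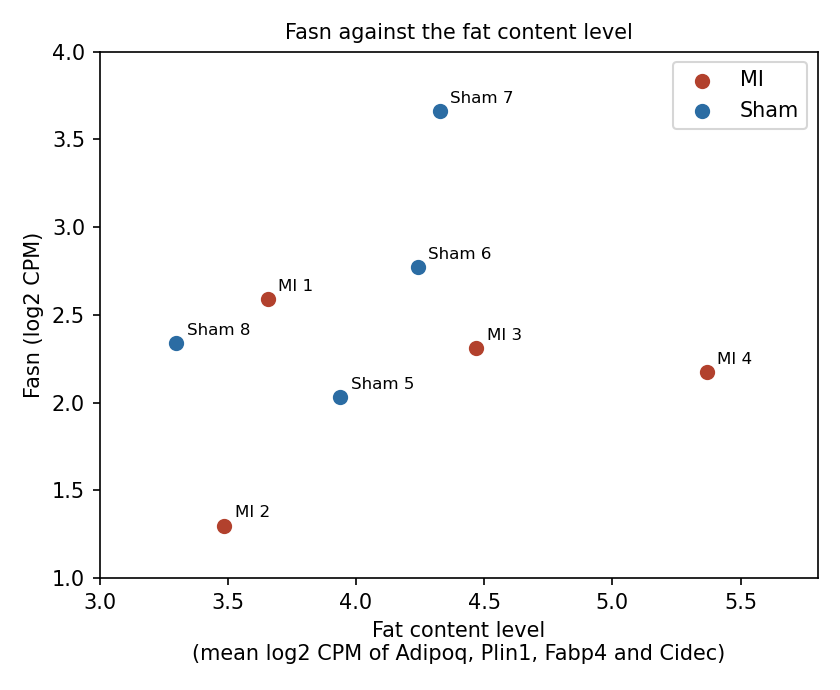
Fasn log2 CPM against the fat content level (mean log2 CPM of Adipoq, Plin1, Fabp4 and Cidec), 1 labelled point per library, MI and Sham in different colours. MI 4 has the highest fat content level, 5.37, with a Fasn level of 2.18, and Sham 7 has the highest Fasn level, 3.66, at a fat content level of 4.33.

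Pparg, the master regulator of fat cell differentiation, was the only one of the 9 with an unadjusted p under 0.05. It had 6.81, 8.37, 8.04 and 11.6 CPM in MI 1 to 4, against 7.24, 5.21, 6.86 and 5.90 CPM in Sham 5 to 8. MI 2, MI 3 and MI 4 were above all Sham animals, and MI 1 was below Sham 5 and Sham 7. The means were 8.71 ± 2.06 CPM in MI and 6.30 ± 0.924 CPM in Sham (SD, n = 4 each), with a log2 fold change of 0.45 ± 0.19, an unadjusted p of 0.0342 and an adjusted p of 0.601 in edgeR. Leaving out 1 library at a time kept the value between 0.29 (without MI 4) and 0.55 (without MI 1). Given 8.14% of all genes at this unadjusted level, 1 of 9 is near the background.

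Lipe, the hormone-sensitive lipase that skeletal muscle also makes, was nearly flat. It had 5.94, 12.2, 11.3 and 13.1 CPM in MI 1 to 4 and 9.001, 10.9, 10.8 and 10.8 CPM in Sham 5 to 8. MI 1 was the lowest and the other MI animals were above every Sham animal, and the MI animals spread more widely. The means were 10.7 ± 3.23 CPM in MI and 10.4 ± 0.908 CPM in Sham (SD, n = 4 each). The log2 fold change was 0.03 ± 0.22 with an adjusted p of 0.974 in edgeR. It was 0.23 without MI 1 and -0.08 without MI 4.

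Cfd, the complement protease adipsin, had 16.8, 8.49, 27.0 and 43.2 CPM in MI 1 to 4, against 12.7, 23.0, 29.3 and 12.4 CPM in Sham 5 to 8. The order of the libraries is close to that of Adipoq, with MI 4 highest and MI 2 lowest. The log2 fold change was 0.26 ± 0.51 with an adjusted p of 0.897 in edgeR, and -0.18 without MI 4.

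Lep, the hormone that reports fat stores to the brain, had few reads. It had 1.13, 0.855, 2.62 and 1.61 CPM in MI 1 to 4 and 0.951, 2.64, 2.93 and 0.738 CPM in Sham 5 to 8, from 17, 14, 31 and 14 counts in MI and 13, 41, 76 and 6 counts in Sham. MI 4, the highest library for Adipoq, was in the middle for Lep. The log2 fold change was -0.34 ± 0.48 with an adjusted p of 0.856 in edgeR, between -0.71 without MI 3 and -0.0025 without Sham 7.

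**Figure D3:**
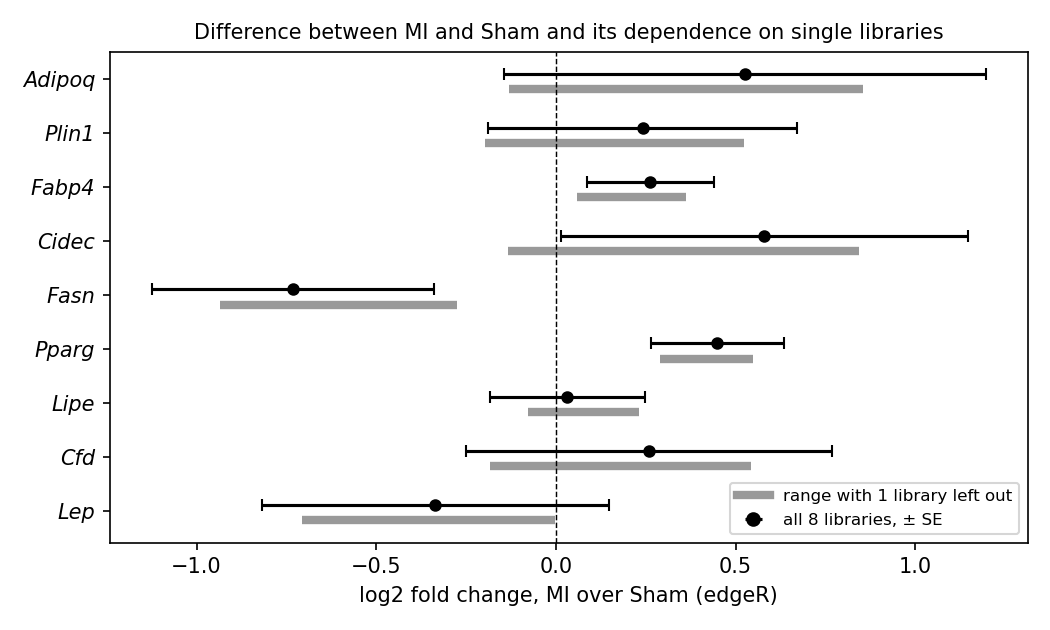
Log2 fold change of MI over Sham in edgeR for each of the 9 genes, with points and SE bars from all 8 libraries and grey bars for the range when 1 library is left out. The grey bars of Adipoq, Plin1, Cidec, Lipe and Cfd cross 0, and those of Fabp4, Fasn, Pparg and Lep do not.

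The fat cell genes fell into a tight group and a looser one. Across the 8 libraries, Pearson's r of log2 CPM with Adipoq was 0.95 for Cidec, 0.93 for Plin1 and 0.92 for Cfd, with exact permutation p of 0.000446, 0.00119 and 0.00250, and 0.00357, 0.00476 and 0.00668 after Benjamini-Hochberg adjustment over the 8 relations with Adipoq. Spearman's rho was 0.95 for Cidec and 0.90 for Plin1 and for Cfd, with adjusted exact p of 0.00913, 0.0122 and 0.0122. Leaving out MI 2 and MI 4, the farthest from the median of Adipoq, left r at 0.92 for Cidec, 0.85 for Plin1 and 0.82 for Cfd. Centring within MI and Sham gave 0.95, 0.93 and 0.92, so the relation was as close among animals of the same group. Of all genes tested, 0.0475% had a higher r with Adipoq than Cidec, 0.0665% than Plin1 and 0.0760% than Cfd. The number ranges hold 3 and 5 libraries, too few for a correlation within each.

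The other members followed Adipoq less closely. Lep had an r of 0.72 (exact permutation p = 0.0517, adjusted 0.103) and a rho of 0.71 (exact permutation p = 0.0576, adjusted 0.115), and r was 0.91 without MI 2 and MI 4. Fabp4 had an r of 0.56 and a rho of 0.19, Pparg 0.43 and 0.24, and Lipe 0.38 and 0.36. Fasn had the lowest r, 0.30 (exact permutation p = 0.488, adjusted 0.488), with a rho of 0.21 (exact permutation p = 0.619, adjusted 0.665), and 22.7% of all genes tested had a higher r with Adipoq. Without MI 2 and MI 4 the Fasn r was 0.26, and after centring within MI and Sham it was 0.43. With 8 libraries a weak relation of Fasn with Adipoq would not be detectable.

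All 36 pairs of the 9 genes were also compared, a choice made after seeing the data. Of these, 7 had an adjusted exact permutation p under 0.05 for Pearson's r: the 6 pairs among Adipoq, Plin1, Cidec and Cfd, and Fabp4 with Pparg. Plin1 with Cidec had the highest r, 0.98 (exact permutation p = 4.96e-05, adjusted 0.00179). Fabp4, a known target of Pparg, had an r of 0.87 with it (exact permutation p = 0.00749, adjusted 0.0385), a rho of 0.81 (exact permutation p = 0.0218, adjusted 0.0871), and an r of 0.76 without the libraries farthest from the median. Fasn had negative r with Pparg (-0.41), Fabp4 (-0.32) and Lipe (-0.20), and 0.67 with Lep (exact permutation p = 0.0502, adjusted 0.169). Its r with Cfd was 0.57, or 0.03 without MI 2 and Sham 7. After centring within MI and Sham, the Fasn r was 0.71 with Cfd, 0.52 with Plin1, 0.43 with Adipoq and 0.40 with Cidec. Centred in the same way it was -0.12 with Pparg, -0.14 with Fabp4 and -0.25 with Lipe.

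**Figure D4:**
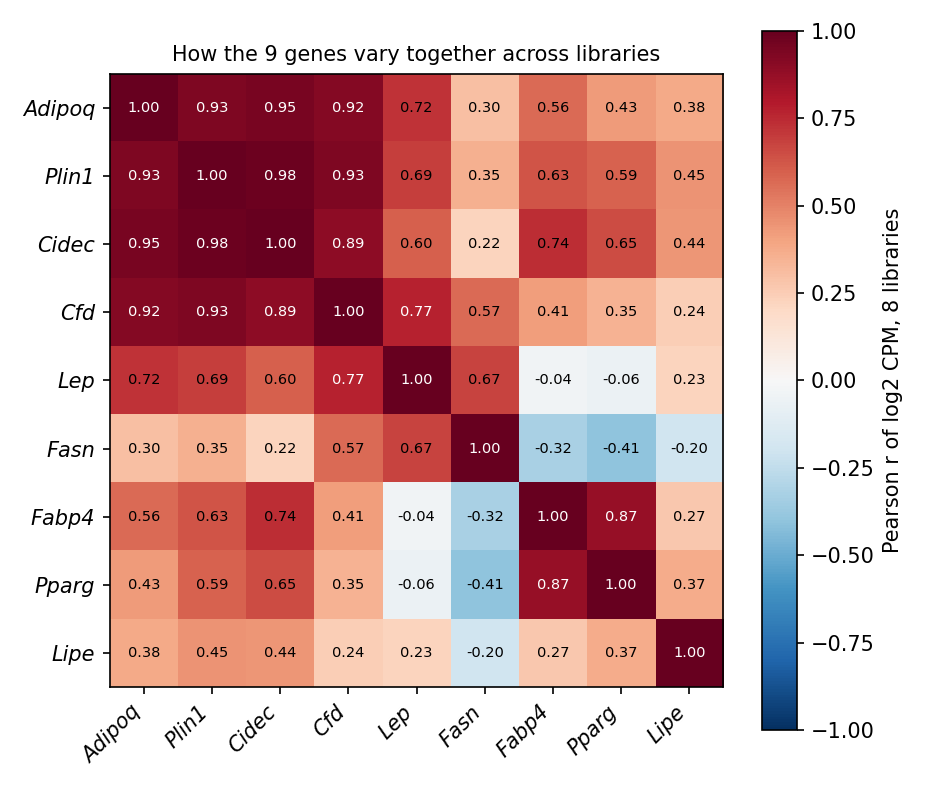
Pearson's r of log2 CPM over the 8 libraries for each pair of the 9 genes, blue for negative and red for positive. Adipoq, Plin1, Cidec and Cfd form a block with r from 0.89 to 0.98, and Fabp4 and Pparg pair at 0.87. Fasn has r of 0.22 to 0.57 with the genes of the block, and negative r with Fabp4 and Pparg.

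Outside the 9, the tested genes whose level was most like the fat content level were Cdo1 (r = 0.97), Phgdh (0.96), Aldh3a1 (0.95), Acvr1c (0.94), Il1b (0.94) and Erp44 (0.94). They were picked for this likeness over 8 libraries that share MI 4 at the top, so r is a description with no test. Cdo1, which oxidises cysteine, had 17.4, 10.4, 34.2 and 68.2 CPM in MI 1 to 4 and 18.7, 25.4, 34.7 and 13.5 CPM in Sham 5 to 8, and kept an r of 0.96 without MI 4 and Sham 8. Acvr1c, an activin receptor, Il1b, a cytokine, and Erp44, a chaperone of the secretory pathway, had r of 0.76, 0.77 and 0.77 without those libraries. Phgdh, Acvr1c and Il1b rest on few reads, with 6, 2 and 6 counts in Sham 8, so counting error limits their r. Over all genes the median r was 0.0055 and 0.190% were above 0.9.

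Of 16 further genes named for fat cells, 10 were tested. Among them Acvr1c (0.94), Nnat (0.94), Retn (0.93), Pck1 (0.92), Rbp4 (0.91) and Tusc5 (0.90) followed the fat content level, Sncg (0.76), Aqp7 (0.60), Thrsp (0.52) and Agpat2 (0.50) less so. MI 4, the highest library for that level, was also the highest for each of Acvr1c, Nnat, Retn, Pck1, Rbp4 and Tusc5. Without MI 4 and Sham 8 the r of Acvr1c was 0.76, and how far the others rest on these libraries was not tested. Retn encodes resistin, Rbp4 the retinol carrier and Pck1 an enzyme of the route that makes the glycerol backbone of triglyceride in fat. Pck1 had 1.80, 1.04, 7.87 and 20.0 CPM in MI 1 to 4 and 3.88, 4.18, 4.43 and 2.83 CPM in Sham 5 to 8, with MI 4 again highest and the log2 fold change at 0.91 ± 0.84. Of the 10, 7 had a log2 fold change above 0 and 3 below it, with a median of 0.15, beside a median of -0.0070 and 48.7% above 0 over all genes, and 0 had an adjusted p under 0.05 in edgeR. Without MI 4 the median of the list was -0.14.

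The fatty acid synthesis list without Fasn gave no called gene either. Of 14 tested members, 5 were above 0 and 9 below, with a median log2 fold change of -0.11, or -0.04 without Sham 7. Mlxipl, the carbohydrate-sensing transcription factor that activates lipogenic genes, had 17.5 ± 3.83 CPM in MI and 23.2 ± 2.03 CPM in Sham (SD, n = 4 each), at -0.40 ± 0.15 (unadjusted p = 0.0226 in edgeR). Acacb, the acetyl-CoA carboxylase of muscle mitochondria, had 65.2, 80.8, 78.7 and 77.5 CPM in MI 1 to 4 and 81.4, 82.3, 96.1 and 89.9 CPM in Sham 5 to 8. All 4 MI values were below all 4 Sham values, the only such gene among the 14, beside 4.55% of all genes, at -0.21 ± 0.09 with an adjusted p of 0.601 in edgeR.

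Enzymes that act beside Fasn lay on both sides of 0, and none passed the adjusted test. Acaca, which makes its substrate malonyl-CoA, was at -0.11 ± 0.16 and Acly, which makes cytosolic acetyl-CoA, at -0.12 ± 0.11. Above 0 were Acss2 (0.07), which makes acetyl-CoA from acetate, the malic enzyme Me1 (0.11), and the desaturases Fads1 (0.21), Fads2 (0.06) and Scd (0.14). Scd1, the desaturase, had 49.9, 17.2, 15.9 and 31.1 CPM in MI 1 to 4 and 29.0, 54.6, 73.0 and 21.0 CPM in Sham 5 to 8, at -0.65 ± 0.51 with an adjusted p of 0.730 in edgeR. Sham 7 was the highest library for Scd1 as for Fasn, and r between them was 0.80, or 0.67 without Sham 7. How reads shared by related desaturase genes were counted is not known, so the Scd1 values are uncertain. Over the libraries r with Fasn was 0.67 for Acly and 0.42 for Acaca, while their r with the fat content level was -0.16 and -0.49.

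**Figure D5:**
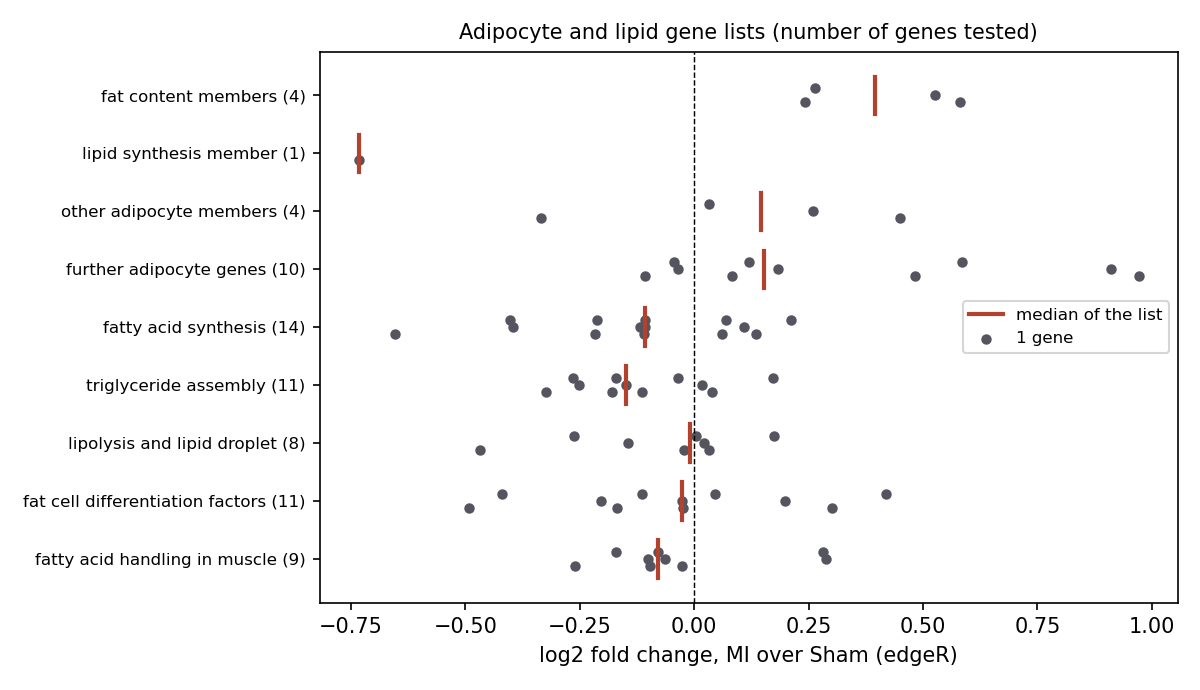
Log2 fold change of MI over Sham in edgeR for each tested gene of the fat cell and lipid lists, 1 point per gene, with a bar for each list's median and the number of genes tested in brackets. The fat content members lie at 0.24 to 0.58 and Fasn at -0.73, and the medians of the other lists lie between -0.15 and 0.15.

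In the remaining lists no gene passed the adjusted test in edgeR. Of the 11 triglyceride assembly genes, 8 were below 0, with Lpin1 at -0.32 ± 0.20 and Lpin2 at -0.25 ± 0.13, phosphatidate phosphatases of this route. Of 8 lipolysis and droplet genes, 4 were below 0, with Plin5, the perilipin of oxidative muscle, at -0.47 ± 0.29. Among 11 fat cell differentiation factors, Rxra, the partner of Pparg, had 4.47 ± 0.595 CPM in MI and 6.26 ± 0.868 CPM in Sham (SD, n = 4 each) at -0.49 ± 0.17, and Ebf2 had 15.4 CPM in MI and 11.5 CPM in Sham, at 0.42 ± 0.15. Of 9 genes of fatty acid handling in muscle, Fabp3, the muscle fatty acid carrier, was at 0.28 ± 0.13 and Cd36, the fatty acid uptake receptor, at 0.29 ± 0.19, with an adjusted p of 0.610 and 0.690 in edgeR.

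Receptors for fat cell hormones and insulin gave 1 of 6 with no overlap between groups, beside 4.55% of all genes. It was the leptin receptor Lepr, with 3.25 ± 0.481 CPM in MI and 1.94 ± 0.724 CPM in Sham (SD, n = 4 each). Its log2 fold change was 0.67 ± 0.28, with an unadjusted p of 0.0358 and an adjusted p of 0.601 in edgeR. Sham 8 had only 7 counts of Lepr, and MI 2 (2.63 CPM) was close to Sham 7 (2.39 CPM). Genes with no overlap also numbered 1 of 11 differentiation factors, 2 of 8 progenitor markers and 2 of 5 red blood cell genes. Brown fat cells, which burn lipid to make heat, are marked by Ucp1 and Zic1. Ucp1 was listed at 0 in all 8 libraries and Zic1 had 1 count in all. Pnpla2 and Cd34, which muscle and its vessels are known to express, were also listed at 0 throughout, so a 0 here need not mean absent RNA. Other genes listed for brown fat cells were detected. Cidea had 21.0 to 33.6 CPM in MI and 23.1 to 35.9 CPM in Sham, and Elovl3 and Dio2 had 66 and 72 counts in all. The summed level of the brown list, led by the cytochrome oxidase subunit Cox8b, was 553 to 598 CPM in MI and 466 to 551 CPM in Sham. Cox8b alone had 462 to 517 CPM in MI and 376 to 466 CPM in Sham, with the groups overlapping. Ppargc1a had 53.7 to 73.4 CPM over all libraries. These genes made up most of the sum, which is therefore not taken as a measure of brown fat cells.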

How the data were processed

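Diaphragm RNA was extracted with TRI Reagent, and libraries were made with SMARTer ultra-low-input and KAPA Hyper kits, per the labels' protocols, and read on a NextSeq 500, per the series' design text. The authors deposited raw whole counts per gene symbol, 1 column per animal. Per the submitters' processing notes, bcl2fastq, STAR 2.5.0a, TopHat, TopHat2 and Cufflinks were used with build rn5. The sources used here do not name the counting program or the annotation, and the labels do not say that strand was kept, so reads of overlapping genes cannot be told apart.

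Of 17055 rows, 3121 were 0 throughout, and 25 symbols had become dates (0.109% of counts). These stayed in the tests unnamed. CPM (counts per 1000000) used TMM-scaled library sizes, and log2 CPM a prior count of 2. MI was tested against Sham in edgeR 4.0.16 (R 4.3.3) with filterByExpr and the robust quasi-likelihood test (two-sided). P-values were adjusted by Benjamini-Hochberg over 10522 genes, with 0.05 as the limit. The biological coefficient of variation, common to all genes, was 17.3% and the median SE 0.145 on the log2 scale. Each library counted as 1 replicate, since pairs within a group differed by 12.1 to 44.3 chi-square units per degree of freedom. P-values of MI against Sham set the group difference against the spread between these 8 animals.

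Correlations used exact two-sided permutation over all 40320 pairings, whose smallest p is 2.48e-05. Alternatives were other scalings and filters, DESeq2 1.42.0, limma-voom (limma 3.58.1), the number range as a term, and leaving out each library. The edgeR and DESeq2 steps were tested on simulated data. The 9 genes, the gene lists and the tests were chosen with earlier results of these data known. Beside the 9, the text names by rule up to 3 genes per list with the smallest p, Acaca, Acly, Scd1 and Fabp3, and the 6 genes most like the fat content level. Genes named outside that rule were chosen after their values were seen.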

Additional observations from a re-analysis of the deposited data

Results flagged for a closer look

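Among 22 groups of 4 libraries checked, 2 had a library whose gap to its nearest neighbour exceeded Dixon's 95% critical share of the group's range, and chance alone gives about 1 in 20. Fabp4 was 280.3 CPM in MI 4, with the next MI library at 182.6 CPM, a gap of 0.870 of the range. Lipe was 9.001 CPM in Sham 5, with the next Sham library at 10.8 CPM, a gap of 0.941 of the range. The other Sham values of Lipe lie between 10.8 and 10.9 CPM.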

How the results depend on the processing

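No paired analysis was possible because the labels number the MI animals 1 to 4 and the Sham animals 5 to 8, so the groups share no number. The count of genes with an adjusted p under 0.05 was 0 in edgeR, 14 in DESeq2, and 0 to 1 with each library left out. Within the lists it was 0, 5 in DESeq2 (all red blood cell genes), and 0 to 1 with each library left out (Alas2, without MI 1). Genes at an unadjusted p under 0.05 numbered 856, and 514 (without Sham 7) to 1090 (without MI 2) with each library left out.

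No alternative gave any of the 9 genes an adjusted p under 0.05, the lowest being 0.481 for Pparg. DESeq2 gave no adjusted p for Plin1 and Lep. Fabp4, Fasn, Pparg and Lep kept their direction in all 16 alternatives. With each library left out the log2 fold change ranged from -0.13 to 0.85 for Adipoq, -0.20 to 0.52 for Plin1, -0.13 to 0.84 for Cidec, -0.076 to 0.23 for Lipe and -0.18 to 0.54 for Cfd. In limma-voom it was -0.034 for Plin1, -0.055 for Lipe and -0.053 for Cfd, and only 0.10 for Adipoq and 0.09 for Cidec; the cause was not tested. With the number range as a term it was 0.54 for Adipoq, 0.66 for Cidec, -0.53 for Fasn and 0.47 for Pparg, but moved by over 1.5 times for Lep (-0.02), Plin1 (0.42), Cfd (0.44) and Lipe (0.12). Lep and Plin1 rest on as few as 6 and 9 counts in a library, which limits both.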

Other observations

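Outside the 9, the genes most like Fasn over the 8 libraries, ranked after the data were seen, were Tmem173 (r = 0.98), Stap1 (0.95), Itpr2 (0.95), Dock8 (0.94), Cd72 (0.94) and Pkib (0.93). Cd72 is a B cell surface protein, Dock8 and Stap1 act in lymphocyte signalling, and Tmem173 encodes the DNA-sensing adaptor STING. Sham 7 was the highest library for all 6, as for Fasn. Stap1, Cd72 and Pkib rest on few reads, with as few as 8, 9 and 7 counts in a library, so counting error limits their r. Without MI 2 and Sham 7, the libraries farthest from the median of Fasn, r was 0.87 for Tmem173 and 0.95 for Cd72, but 0.63 for Stap1, 0.54 for Itpr2, 0.64 for Dock8 and 0.64 for Pkib. In Sham 7 the B cell gene Cd79b had 180 counts, where no other library had more than 15. The 8 macrophage markers summed to 89.9 to 158.2 CPM in MI, against 98.5 to 233.6 CPM in Sham, with Sham 7 the highest. The part of these cells in the Fasn values was not tested.

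Of the fibro-adipogenic progenitor markers, the cells from which fat cells form in muscle, Lum was 273.7 CPM in MI and 161.4 CPM in Sham, at 0.76 ± 0.26, and the transcription factor Osr1 8.70 CPM in MI and 13.7 CPM in Sham, at -0.65 ± 0.17. Neither passed the adjusted test in edgeR (adjusted p = 0.601 for each). The mesothelial markers, from the sheet that covers the diaphragm, summed to 55.6 to 263 CPM in MI and 151 to 345 CPM in Sham. Sham 8, highest for these, had the lowest fat content level, 3.30. MI 4, next highest at 263 CPM, had the highest fat content level, 5.37, and MI 2, lowest at 55.6 CPM, had a level of 3.49. A relation between them was not tested.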
